A study of Mus musculus with 8 samples.

Results

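The antibody mRNAs of activated splenic B cells were examined through 10 genes, the heavy chain constant genes Ighm, Ighd, Ighg1, Ighg2b, Ighg2c, Ighg3, Ighe and Igha, the kappa light chain constant gene Igkc and the joining chain gene Jchain. They were chosen by gene symbol and make up 10 of the 53242 genes in the deposited tables. B cells were isolated from spleens of C57BL/6 mice of 8 to 12 weeks and cultured for 24 h with IL-4 at 40 ng/ml on irradiated CD40LB cells, a feeder line that displays CD40 ligand and secretes BAFF, which was then removed with beads against H-2Kd. The 4 control libraries came from Eif4a1+/+ CD23-cre mice and the 4 knockout libraries (4A1 KO) from Eif4a1 fl/fl CD23-cre mice, so that both genotypes carried the Cre, which is active from the immature B cell stage in the spleen. Each library was made from an individual mouse. Batch A held replicates 1 (male) and 2 (female), and batch B held replicates 3 (male) and 4 (female). The study left replicate 1 of both genotypes out of its comparison because of low viability, so fold changes were fitted on replicates 2 to 4 (n = 3 per genotype) and levels are shown for all 8 libraries.

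A B cell transcribes its rearranged variable segment together with the constant gene that lies next to it. Ighm and Ighd share a primary transcript and give IgM and IgD, and switching to IgG, IgE or IgA joins the variable segment to a constant gene further downstream. Before a switch, the target constant gene is transcribed from its own upstream promoter as a sterile germline transcript, and IL-4 through STAT6 is known to open Ighg1 and Ighe in mouse B cells. Switch regions rich in the tetramer AGCT lie between these promoters and the constant exons. Igkc is part of most mouse antibodies, and the J chain links the subunits of secreted IgM and IgA.

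All 8 heavy chain genes lie on the minus strand of chromosome 12 in the GRCm39 annotation, in the order of the locus. Ighm occupies chr12:113382178-113386350 and Ighd chr12:113370224-113379944. Ighg3 follows at chr12:113319844-113324852, Ighg1 at chr12:113288860-113294143, Ighg2b at chr12:113266585-113271553 and Ighg2c at chr12:113248945-113252552. Ighe at chr12:113232880-113236868 and Igha at chr12:113218450-113223856 end the series, 149.48 and 162.49 kb downstream of the first Ighm exon. Igkc is a single exon on the plus strand of chromosome 6 (chr6:70703419-70703950), and Jchain lies on the minus strand of chromosome 5 (chr5:88667668-88675750).

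The IL-4 response of Ighg1 and Ighe is usually discussed through the STAT6 motif TTCNNNNGAA, and the matches upstream of these genes are therefore shown. In the 10000 bases before each gene, the motif, which reads the same on both strands, occurred 4 times at Ighg1 and 5 times at Ighe. It also occurred 5 times before Ighm and 2 times before Ighg3, and 0 times before Ighg2b and Ighg2c. Igha had 0 matches in the 9023 bases that separate it from Ighe, and Ighd had 0 in the 2233 bases that separate it from Ighm. Of 11689 windows of 10000 bases on chromosome 12, 95.2% held at least 1 match, 38.0% at least 4 and 20.8% at least 5, so matches in these numbers are common. Capitals mark the motif with 10 bases on either side, read on the minus strand, and the distance is from the first motif base to the annotated start of the gene.
Ighg1, 9151 bases upstream, chr12:113303275-113303304: agagacccagTTCCTATGAAacctctccaa
Ighg1, 8979 bases upstream, chr12:113303103-113303132: cacccacacaTTCACATGAAgtaatctaag
Ighg1, 8326 bases upstream, chr12:113302450-113302479: tccaagagcgTTCCCAGGAAtgccttcaag
Ighg1, 203 bases upstream, chr12:113294327-113294356: gtggggcattTTCCTAGGAAcgggactggg
Ighe, 9246 bases upstream, chr12:113246095-113246124: ggtgtccatcTTCCAATGAAacatgagctc
Ighe, 5589 bases upstream, chr12:113242438-113242467: caatagttgcTTCCAGGGAActctgcattt
Ighe, 5469 bases upstream, chr12:113242318-113242347: aagaccacaaTTCCCTTGAAtctcacactc
Ighe, 4417 bases upstream, chr12:113241266-113241295: cttagtcaacTTCCCAAGAAcagaatcaaa
Ighe, 3058 bases upstream, chr12:113239907-113239936: cttttgtataTTCGGTTGAAatgggttggt

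The repeats of the switch regions are shown for the 4 genes whose RNA fell in 4A1 KO cells. The densest stretch of 1000 bases upstream of Ighm held 137 AGCT, against 42 for Ighg3, 30 for Ighg1 and 45 for Ighe. The other windows held up to 33 for Ighg2b, 35 for Ighg2c and 55 for Igha, and Ighd, which has no switch region of this kind, reached 7. Of 116919 windows of 1000 bases on chromosome 12, 0.0402% held 20 AGCT or more, and their median was 5. The 60 bases with the most AGCT upstream of each gene are given on the minus strand with AGCT, which is its own reverse complement, in capitals.
Ighm, chr12:113388413-113388472: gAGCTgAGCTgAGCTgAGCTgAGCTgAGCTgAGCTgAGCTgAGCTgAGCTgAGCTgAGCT
Ighg3, chr12:113328605-113328664: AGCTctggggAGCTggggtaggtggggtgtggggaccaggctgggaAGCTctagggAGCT
Ighg1, chr12:113301032-113301091: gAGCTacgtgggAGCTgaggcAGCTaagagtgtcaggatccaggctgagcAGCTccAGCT
Ighe, chr12:113238925-113238984: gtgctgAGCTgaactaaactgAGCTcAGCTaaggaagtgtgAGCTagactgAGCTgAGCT

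The deposited values are per gene, so a sterile germline transcript and the mRNA of a switched cell fall into the same row. The same holds for secreted and membrane forms, which end in different exons. For Ighm the 59 coding bases that only the secreted form carries and the 116 bases of the first membrane exon are shown, as both were counted together.
Ighm secreted coding tail, chr12:113384490-113384548: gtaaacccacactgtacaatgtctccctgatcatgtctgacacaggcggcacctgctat
Ighm first membrane exon, chr12:113382573-113382688: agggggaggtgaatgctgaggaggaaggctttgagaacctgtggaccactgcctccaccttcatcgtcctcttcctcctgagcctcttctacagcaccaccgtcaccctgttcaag

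Between 31727557 and 43210858 reads were counted per library, of which the 10 genes took 0.443% to 0.523% in control and 0.352% to 0.397% in 4A1 KO cells. Eif4a1, the targeted gene, was between 933 and 1142 TPM, the length-normalised transcript level, in control and between 700.4 and 843 TPM in 4A1 KO libraries. Its log2 fold change was -0.44 (SE 0.05, adjusted p = 1.2e-04), under the fold threshold. All 8 B cell markers examined were detected in every library, including Ms4a1 (328 to 394 TPM). Of these 8, 4 were called lower in 4A1 KO cells, beside 13.7% of all tested genes: the receptor chains Cd79a (log2 fold change -0.67) and Cd79b (-0.89), the inhibitory receptor Cd22 (-0.76) and the complement receptor Cr2 (-1.10). Fcer2a, the gene of CD23, went the other way (0.30, adjusted p = 0.0012), under the fold threshold. The summed level of the 8 was 5238 to 6049 TPM in control and 5487 to 5571 TPM in 4A1 KO libraries. The T cell markers Cd3d, Cd3e, Cd3g, Cd4 and Cd8a, the neutrophil markers S100a8 and S100a9 and the fibroblast markers Lum, Dcn and Pdgfrb were at or below 0.183 TPM in all libraries. The summed level of 10 fibroblast markers, which would mark feeder cells, was 3.89 to 18.1 TPM in control and 6.21 to 10.97 TPM in 4A1 KO libraries. The T cell list of 7 genes summed to 14.4 to 23.4 TPM in control and 10.0 to 18.1 TPM in 4A1 KO libraries, most of it Lck, and the erythroid list to at most 1.41 TPM. The myeloid list summed to 10.5 to 15.2 TPM in control and 15.6 to 18.4 TPM in 4A1 KO libraries, so that every 4A1 KO library was above every control. In it the macrophage marker Adgre1 was called higher (0.62, adjusted p = 0.0069) and Cd68 was at 7.75 to 12.1 TPM (0.41, adjusted p = 0.024, under the fold threshold). Among the fibroblast markers the fibronectin gene Fn1 was called higher (0.86, adjusted p = 0.022) and the collagen gene Col3a1 lower (-1.57, adjusted p = 0.044). The part of other cell types in the results was not tested.

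In 4A1 KO cells, 4 of the 10 genes fell: Ighm, Ighg1, Ighg3 and Ighe. The call required that edgeR's adjusted p was under 0.05 with a log2 fold change beyond 0.5 in either direction. Of the 14218 genes tested, 13.7% were called lower and 11.6% were called higher by the same rule, and 0 of the 10 genes were called higher. All 10 genes were tested, and of the remaining 6, Ighd and Igkc had an adjusted p under 0.05 with a change below the fold threshold, and Ighg2b, Ighg2c, Igha and Jchain did not pass. In bulk RNA, fewer cells that express a gene and less RNA per cell cannot be told apart.

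**Figure D1:**
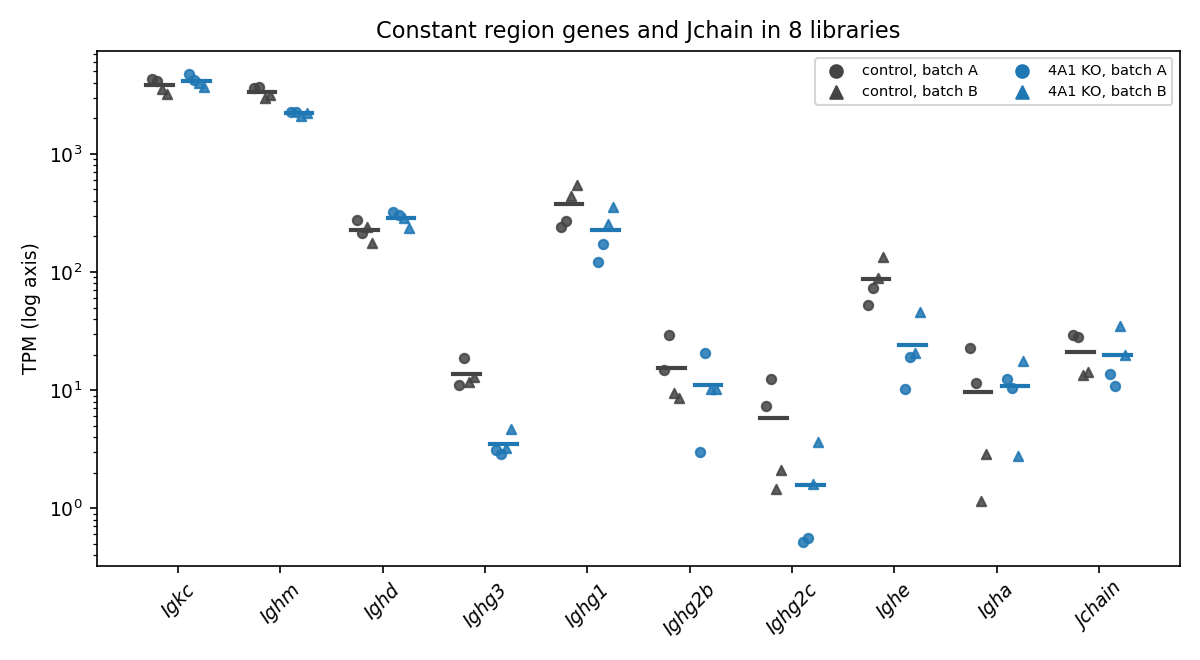
TPM of the 10 genes on a log axis in the 4 control (black) and 4 4A1 KO (blue) libraries, with circles for batch A, triangles for batch B and horizontal bars for the mean of 4 libraries. Ighm, Ighg3 and Ighe are separated by genotype, with 4A1 KO libraries at most at 2258, 4.69 and 45.8 TPM and control libraries at least at 2955, 11.1 and 52.8 TPM.

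Ighm, the gene of IgM and the most abundant heavy chain, had 3606, 3718, 2955 and 3130.2 TPM in controls 1 to 4. The 4A1 KO libraries 1 to 4 had 2258, 2245, 2079 and 2229 TPM. Every 4A1 KO library was thus below every control library, and the 4A1 KO libraries lay closer together (3352 ± 367 TPM in control and 2203 ± 83.3 TPM in 4A1 KO, SD, n = 4). The log2 fold change was -0.57 (SE 0.06, adjusted p = 5.6e-05), and the level fell by 32.6%. Within batch A the log2 fold change was -0.68 and within batch B -0.49, the latter just short of the fold threshold.

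Ighe, the gene of IgE, had 52.8, 73.1, 89.3 and 135 TPM in controls 1 to 4. Its levels in 4A1 KO cells 1 to 4 were 10.3, 19.1, 20.6 and 45.8 TPM. In each genotype the libraries of batch B were above those of batch A, and the genotypes did not overlap. Ighe fell 3.59-fold (log2 fold change -1.84, SE 0.10, adjusted p = 9.6e-06). The log2 fold change was -2.09 within batch A and -1.81 within batch B.

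Ighg1, the gene of IgG1, had 240.3, 268, 441 and 545 TPM in controls 1 to 4. In 4A1 KO cells 1 to 4 it had 122, 173, 254 and 354 TPM. The batches differed more than the genotypes, so that the groups overlapped, yet the 4A1 KO library was below the control library in 4 of 4 pairs of the same batch and sex. With batch and sex in the model the log2 fold change was -0.69 (SE 0.05, adjusted p = 2.2e-05), which is 1.61-fold lower. Without that block the adjusted p was 0.102.

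Ighg3, the gene of IgG3, was a low transcript with 11.1, 18.7, 11.8 and 12.9 TPM in controls 1 to 4. Its levels in 4A1 KO cells 1 to 4 were 3.13, 2.85, 3.26 and 4.69 TPM. These rested on 403 to 727 counts in control and 85 to 186 counts in 4A1 KO libraries, and the groups did not overlap. Ighg3 fell 3.88-fold (log2 fold change -1.96, SE 0.21, adjusted p = 8.6e-05).

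When TPM of the 8 libraries were compared directly, 19.6% of 12996 genes had all 4A1 KO libraries below all controls and 16% had them all above. Ighm, Ighg3 and Ighe were the 3 of 10 that did so in the lower direction, and 0 did so in the higher. The exact permutation test of the mean TPM (two-sided) gave p = 0.0286 for each of these 3 genes, which 4 libraries against 4 cannot go below. The same exact test gave p = 0.171 for Ighg1 and p = 0.0857 for Ighd. By limma on log2(TPM + 1), Ighm, Ighd, Ighg1, Ighg3 and Ighe passed an adjusted p of 0.05, 5 of 10 beside 47.2% of the 12976 genes tested. Ighd (adjusted p = 0.014) did not pass without replicate 2 (adjusted p = 0.061) or without replicate 4 (adjusted p = 0.055).

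**Figure D2:**
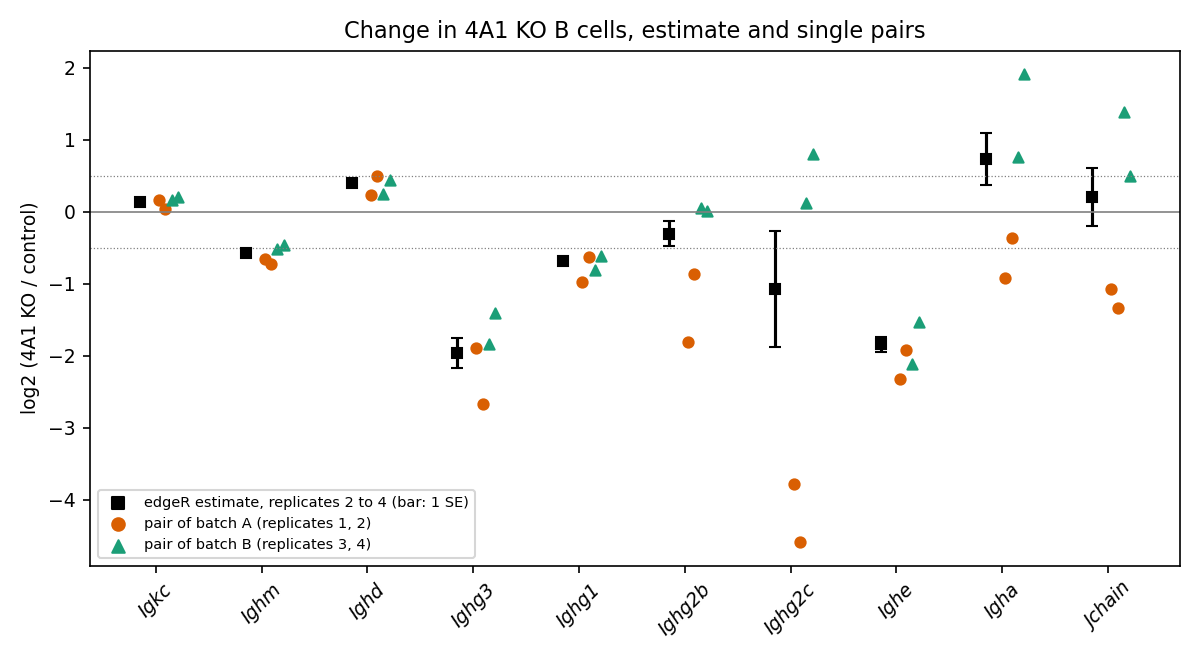
Log2 ratio of 4A1 KO to control for each gene, as the edgeR estimate on replicates 2 to 4 (black squares, bars of 1 SE) and as single pairs of the same replicate number in batch A (orange circles) and batch B (green triangles); dotted lines mark a log2 fold change of 0.5 in either direction. Ighm, Ighg1, Ighg3 and Ighe are below 0 in all 4 pairs, and Ighg2b, Ighg2c, Igha and Jchain are on opposite sides of 0 in the 2 batches.

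Ighd, which is spliced from the same primary transcript as Ighm, did not fall with it. It had 278, 216, 239 and 175 TPM in controls 1 to 4. In 4A1 KO cells 1 to 4 it had 319, 304, 285 and 234.2 TPM, higher than the control of the same number in 4 of 4 pairs although the groups overlapped. The log2 fold change was 0.40 (SE 0.06, adjusted p = 4.6e-04), under the fold threshold.

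Igkc, the kappa constant gene, had 4323, 4134, 3538 and 3238 TPM in controls 1 to 4. The 4A1 KO cells 1 to 4 had 4738, 4209, 3978 and 3679.8 TPM. The groups overlapped, with batch A above batch B in both genotypes, and the log2 fold change was 0.14 (SE 0.05, adjusted p = 0.037), under the fold threshold. The lambda constant gene Iglc2 had a log2 fold change of 0.33 (SE 0.06, adjusted p = 0.0015), also not called, and Iglc1 (-0.14, adjusted p = 0.26) and Iglc3 (0.08, adjusted p = 0.31) did not pass, nor did Vpreb3 (-0.39, adjusted p = 0.098). Of the list of lambda constant and surrogate light chain genes, 4 of 7 were tested and 0 were called in either direction, with a median log2 fold change of -0.03 against 0.0066 over all tested genes. Light chain RNA was thus not among the antibody mRNAs called lower.

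The balance between the genes was examined as 4 ratios within each library, which do not depend on library size. Ighd was 7.71%, 5.81%, 8.08% and 5.60% of Ighm in controls 1 to 4. In 4A1 KO cells 1 to 4 it was 14.1%, 13.5%, 13.7% and 10.5%, above every control. The log2 ratio was higher by 0.94 (SD 0.27 in control and 0.20 in 4A1 KO, n = 4, exact permutation test, two-sided, p = 0.0286, 0.0571 after Benjamini-Hochberg adjustment over the 4 ratios).

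Igkc amounted to 102%, 95.1%, 94.4% and 80.7% of the summed heavy chain TPM in controls 1 to 4. In 4A1 KO cells 1 to 4 it amounted to 174%, 152%, 149.8% and 127%. The groups did not overlap, and the log2 ratio was higher by 0.69 (exact permutation p = 0.0286, adjusted 0.0571). Neither of these ratios passed the adjusted threshold, and with 2 of 4 ratios at the smallest possible p the adjustment could not go lower.

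Ighg1 was 6.67% to 17.4% of Ighm in control and 5.40% to 15.9% in 4A1 KO libraries, a difference of -0.16 on the log2 scale that was within the spread between libraries (SD 0.71 and 0.69, exact permutation p = 0.686, adjusted 0.686). Ighe was 1.46% to 4.32% of Ighm in control and 0.456% to 2.05% in 4A1 KO libraries. The ratio of Ighe to Ighm was lower by 1.39 on the log2 scale, which did not pass (exact permutation p = 0.0857, adjusted 0.114), and it was lower in 4 of 4 pairs. Within batch A the Ighe ratios were 1.46% and 1.96% in control and 0.456% and 0.849% in 4A1 KO, and within batch B they were 3.02% and 4.32% against 0.993% and 2.05%.

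**Figure D3:**
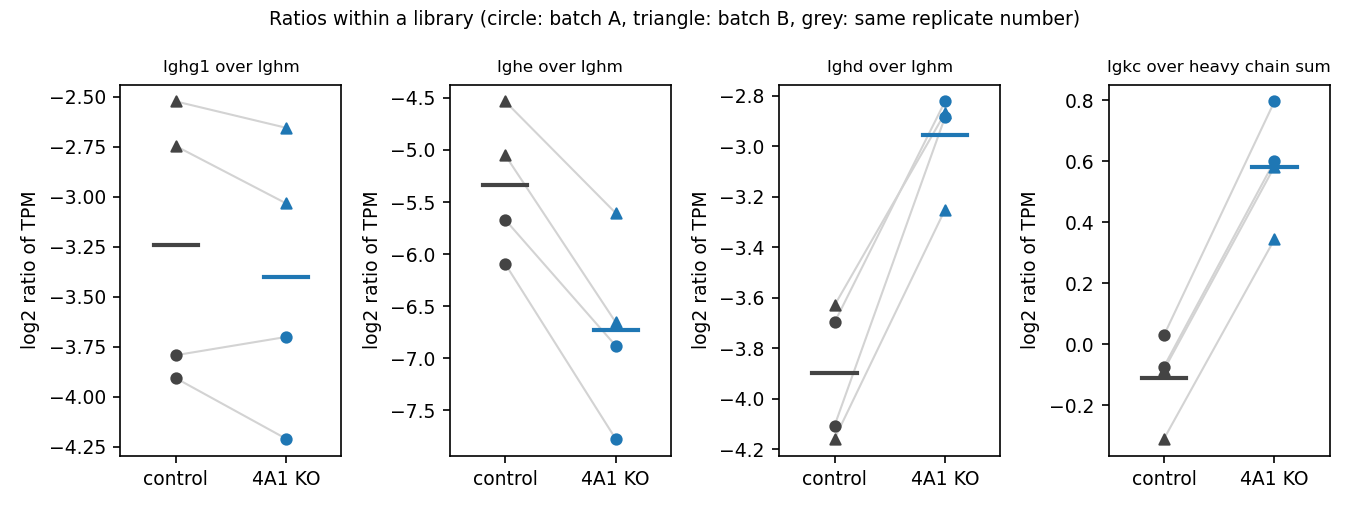
Log2 ratio of TPM within each library for Ighg1, Ighe and Ighd over Ighm and for Igkc over the sum of the 8 heavy chain genes, in control (black) and 4A1 KO (blue), with circles for batch A, triangles for batch B, bars for the mean and grey lines joining the same replicate number. The Ighd and Igkc ratios are higher in every 4A1 KO library than in any control, and the Ighg1 ratio overlaps between the genotypes.

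As a share of summed heavy chain TPM, Ighm took 78.0% to 85.5% in control and 76.9% to 82.8% in 4A1 KO libraries. Ighd took 4.37% to 6.57% in control and 8.08% to 11.7% in 4A1 KO. Ighe took 1.25% to 3.37% in control and 0.378% to 1.58% in 4A1 KO. The ranges overlapped for Ighm and Ighe, whose shares were lower in 4A1 KO in 4 of 4 pairs, and did not overlap for Ighd.

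By mean TPM, the order in control was Igkc, Ighm, Ighg1, Ighd, Ighe, Jchain, Ighg2b, Ighg3, Igha and Ighg2c. The ranges of Igkc and Ighm overlapped, as did those of Ighg1 and Ighd and of every neighbour from Jchain to Ighg2c. In 4A1 KO cells Ighd stood above Ighg1 (286 ± 37.1 against 226 ± 101 TPM, SD, n = 4), although their ranges overlapped, and Igkc and Ighm no longer overlapped. Ighg3 was 8th in control and 9th in 4A1 KO, below Igha.

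Igha and Jchain were called lower in batch A and higher in batch B when each batch was fitted alone, with replicate 1 in the fit of batch A. The batch A pairs of Igha differed by -0.92 (replicate 1) and -0.37 (replicate 2) on the log2 CPM scale, and those of Jchain by -1.07 and -1.34. Ighg2b and Ighg2c were called lower in batch A and did not pass in batch B (log2 fold changes 0.03 and 0.51, adjusted p = 0.87 and 0.18). Ighg2c, the IgG2c gene of C57BL/6 mice, had 7.38 and 12.4 TPM in the batch A controls and 0.516 and 0.56 TPM in the batch A 4A1 KO libraries. In batch B it had 1.45 and 2.09 TPM in control and 1.59 and 3.64 TPM in 4A1 KO libraries. The batch A 4A1 KO values rested on 10 and 11 counts, and those of the controls on 180 and 289 counts.

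Jchain had 29.3 and 27.96 TPM in the batch A controls and 13.6 and 10.7 TPM in the batch A 4A1 KO libraries. In batch B it had 13.3 and 14.1 TPM in control and 34.8 and 19.7 TPM in 4A1 KO libraries. Each batch separated the genotypes, in reverse order, so that the estimate over replicates 2 to 4 was 0.21 (SE 0.40, adjusted p = 0.69).

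Igha had 22.9 and 11.6 TPM in the batch A controls and 12.3 and 10.4 TPM in the batch A 4A1 KO libraries. In batch B it had 1.15 and 2.87 TPM in control and 2.77 and 17.5 TPM in 4A1 KO libraries. Its highest and lowest values were both in controls, and the estimate over replicates 2 to 4 was 0.73 (SE 0.36, adjusted p = 0.12). Ighg2b had 14.7 and 29.0 TPM against 3.00 and 20.6 TPM in batch A, with a log2 fold change of -1.23 there. In batch B, where its counts were 268 and 303 in control and 271 and 300 in 4A1 KO libraries, the log2 fold change was 0.03.

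The difference between the batches was tested as the genotype by batch term of edgeR over all 8 libraries. Of 14211 genes, 1 passed an adjusted p of 0.05 (0.00704%), and this gene was Ighg2c, with a log2 fold change higher by 4.79 in batch B than in batch A (SE 0.41, adjusted p = 0.021). The term was 2.16 for Jchain (SE 0.27, adjusted p = 0.18), 2.30 for Igha (SE 0.80, adjusted p = 0.999) and 1.20 for Ighg2b (SE 0.56, adjusted p = 0.999). At an unadjusted p under 0.05 this fit picked 5 of the 10 genes, beside 4.29% of all genes. These were Ighg2c, Jchain, Igha, Ighm (term 0.20) and Ighg3 (term 0.70), and for Ighm and Ighg3 the adjusted p was 0.999. Without replicate 1, the pair of low viability, the term of Ighg2c was 5.19 (SE 0.75, adjusted p = 0.69), and 0 of 14218 genes passed, with 478 at an unadjusted p under 0.05. Batch A then holds 1 library per genotype, which is assumed to vary like those of batch B.

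The genotype by sex term passed an adjusted p of 0.05 for 0 of 14211 genes (0%), the 10 genes included, also with the size factors of DESeq2. At an unadjusted p under 0.05 it picked 405 genes (2.85%) and 3 of the 10, Ighd, Ighg1 and Ighe. Their terms, male minus female, were -0.23, -0.27 and -0.51 on the log2 scale. With the size factors of DESeq2 it picked 393 genes (2.77%) and 2 of the 10, as Ighd had an unadjusted p of 0.056 from edgeR.

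**Figure D4:**
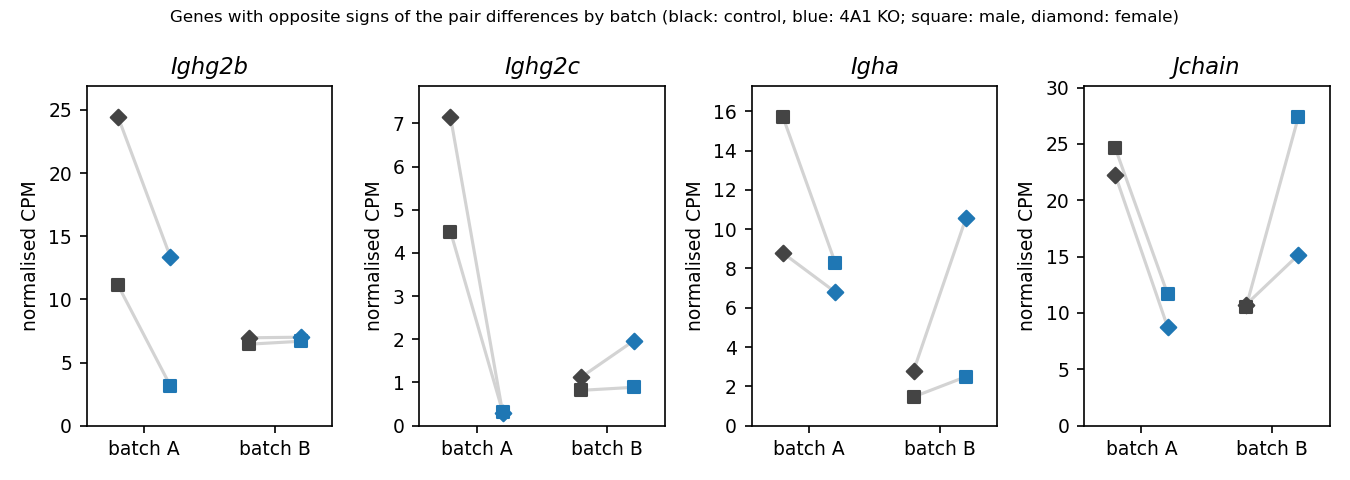
Normalised CPM, the count relative to library size, of Ighg2b, Ighg2c, Igha and Jchain by batch, with controls in black, 4A1 KO in blue, squares for males, diamonds for females and grey lines joining the same replicate number. Lines fall in batch A in all 4 panels and rise or stay level in batch B. Ighg2c goes from 4.50 and 7.15 CPM to 0.317 and 0.286 CPM in batch A.

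Plasma cells, which carry large amounts of J chain and switched antibody mRNA, were traced by 6 markers. Their defining marker Tnfrsf17 was at 0 TPM in 6 of 8 libraries. It was at 0.462 TPM in control 2 of batch A and at 0.221 TPM in 4A1 KO 3 of batch B. The summed level of the 6 markers was 101 to 153 TPM in control and 63.9 to 102 TPM in 4A1 KO libraries, with Slamf7 as its largest part. Sdc1, the plasma cell surface proteoglycan, was 5.01 and 5.50 TPM in the batch A controls against 1.95 and 2.55 TPM in 4A1 KO. In batch B it was 6.76 and 8.49 against 2.30 and 4.14 TPM, so that it was lower in 4A1 KO in both batches. Slamf7 and Derl3 were also lower in every pair. Prdm1 was higher in 4A1 KO in the pair of replicate 1 (2.52 against 1.52 TPM). Fkbp11 was higher in the pair of replicate 3 (1.08 against 0.965 TPM) and did not pass (edgeR, adjusted p = 0.22). The part of plasma cells in the batch pattern of Jchain, Igha, Ighg2b and Ighg2c was not tested.

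Along the locus, genes that fell and genes that did not were interspersed. Ighd, without a call, lay 6.41 kb from the start of Ighm, which fell, and Igha, without a call, lay next to Ighe, which fell. Ighg2b and Ighg2c, which did not pass, lay between Ighg1 and Ighe.

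**Figure D5:**
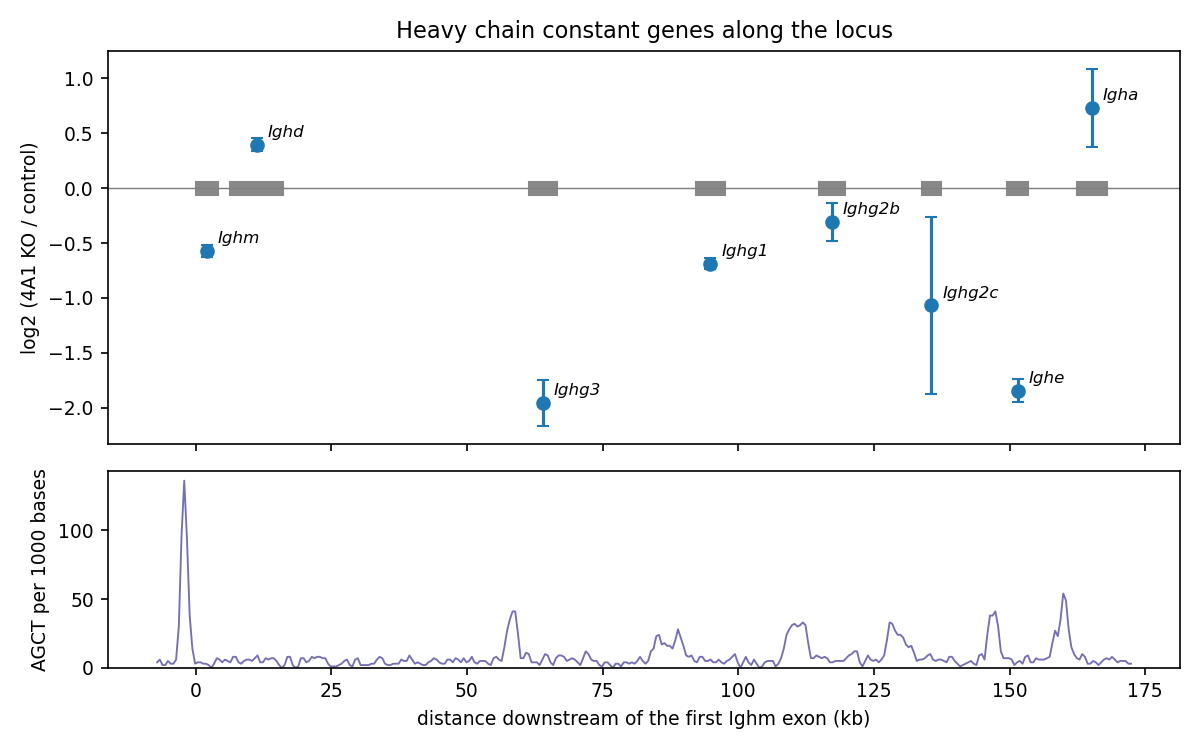
Heavy chain constant genes by distance downstream of the first Ighm exon (grey boxes, to scale), with the log2 fold change of each gene and 1 SE (upper panel) and the number of AGCT in overlapping windows of 1000 bases (lower panel). The lowest estimates, for Ighg3 at 61.5 kb and Ighe at 149.48 kb, are not neighbours, and AGCT peaks lie before each gene except Ighd.

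Genes that process the heavy chain transcript were next compared. In a list of 12 regulators of immunoglobulin transcription and mRNA processing, 1 was called lower and 3 were called higher, with a median log2 fold change of 0.18. Over all tested genes 13.7% were called lower and 11.6% higher, with a median of 0.0066. Zfp318, which is known to be needed for the long transcript that yields Ighd, was at 8.65 to 10.2 TPM in control and rose to 14.8 to 18.1 TPM in 4A1 KO libraries (log2 fold change 0.78, SE 0.07, adjusted p = 4.3e-05). Pcf11, a cleavage and polyadenylation factor, rose by 0.75 (adjusted p = 1.0e-04), and Hnrnpll, a splicing regulator of plasma cells, by 0.83 (adjusted p = 5.8e-04). Ell2, an elongation factor that favours secretory Ighm mRNA in plasma cells, had 0.45 (adjusted p = 2.0e-04), under the fold threshold. Pou2af1, a coactivator of octamer-dependent immunoglobulin promoters, fell by 0.97 on the log2 scale (adjusted p = 1.7e-05).

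In the list of 15 genes of germline transcription and class switching, 6 were called lower and 4 higher, with a median log2 fold change of -0.19 (all tested genes: 13.7% lower, 11.6% higher, median 0.0066). Msh6, a mismatch repair gene, fell by 0.83 (adjusted p = 1.5e-05). Other calls in this direction, named after their values were seen, were the IL-4 receptor gene Il4ra (-0.90), the transcription factor gene Batf (-0.91) and the uracil glycosylase gene Ung (-0.66).

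Relb and Rela, which encode NF-kB subunits downstream of CD40, rose by 0.77 (adjusted p = 1.7e-05) and 0.65 (adjusted p = 2.0e-05) on the log2 scale. The other 2 calls in this direction, also named after their values were seen, were Nfkb1 (0.65) and the repressor gene Bcl6 (0.87). Stat6, the mediator of the IL-4 signal, was at 119 to 133 TPM in control and 153 to 171 TPM in 4A1 KO libraries. Its log2 fold change was 0.43 (SE 0.05, adjusted p = 1.0e-04), under the fold threshold. The part of IL-4 signalling in the levels of Ighg1 and Ighe was not tested.

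Of 9 genes of the plasmablast program, 7 were tested, 3 were called lower and 0 higher, beside 13.7% and 11.6% of all tested genes. The median log2 fold change was -0.48, beside 0.0066 over all. Xbp1, the transcription factor of the secretory program, fell by 0.94 (adjusted p = 1.0e-05), Sdc1 by 1.22 (adjusted p = 8.5e-05) and Prdm1, the gene of BLIMP1, by 0.64 (adjusted p = 0.0011). Slamf7 had -0.47 (adjusted p = 8.5e-04), under the fold threshold, and Irf4 had -0.15 (adjusted p = 0.10). Sdc1, Prdm1 and Slamf7 are also among the plasma cell markers above.

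Of 13 genes of antibody assembly and transport, 12 were tested, 7 were called lower and 1 higher, where 13.7% and 11.6% of all tested genes were. Their median log2 fold change was -0.61 and that of all tested genes 0.0066. Mzb1, a chaperone cofactor of IgM assembly, was at 307 to 376 TPM in control and fell to 77.9 to 144 TPM in 4A1 KO libraries (log2 fold change -1.82, SE 0.13, adjusted p = 1.7e-05). Pdia4, a protein disulfide isomerase, fell by 0.80 (adjusted p = 1.4e-05), and the B cell receptor signalling chains Cd79a and Cd79b, also B cell markers, by 0.67 and 0.89 on the log2 scale. Erp44, which retains unassembled IgM subunits in the secretory pathway, rose by 0.78 (adjusted p = 1.1e-05).

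For each of the 4 genes that fell, the genes with the most similar profile over the 8 libraries were sought by the root mean square difference of centred log2 CPM. Closest to Ighm were Elmod3 (0.042), Mtch1 (0.046) and Pip5k1c (0.051). Closest to Ighe were Rad54b (0.16), Ncapg2 (0.18) and Fancb (0.18), with log2 fold changes of -1.76 to -1.83. Closest to Ighg1 were Arid3a (0.15), Dcp2 (0.15) and Mis12 (0.17), with -0.56 to -0.99. Closest to Ighg3 were Nfam1 (0.19), Derl3 (0.20), also a plasma cell marker above, and B230217C12Rik (0.20), with -1.61 to -2.34. As the profiles come from the same libraries, fold changes near those of the 4 genes follow from the choice.

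Reads of 50 bases can match more than 1 constant gene. Of all 50-base windows of the annotated transcripts, 5.49% of those of Ighg2c and 4.15% of those of Ighg2b also occurred in another gene, mostly each other, and 1.58% of those of Ighg3 and 0.393% of those of Ighg1 did. The share was 0 for Ighm, Ighd, Ighe and Igha and 0.371% for Jchain. For Igkc it was 97.7%, with a noncoding gene annotated at the same place that is no row of the tables. Values of Ighg2b and Ighg2c are therefore less certain than those of Ighm and Ighe.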

How the data were processed

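RNA of 8 libraries was read from directional libraries, so a gene and its antisense partner were told apart. The authors trimmed the reads with Trim Galore 0.6.6, mapped them to GRCm39 with HISAT2 2.1.0 and deposited raw counts made with Seqmonk over merged isoforms. The authors deposited TPM made with StringTie 2.1.1. The treatment of multi-mapped reads is not given in the sources used here.

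Genotype, sex, batch and replicate were taken from the labels. Counts were tested in R 4.3.3 with edgeR 4.0.16 (quasi-likelihood test, TMM, filterByExpr by genotype, covariates batch and sex) on 6 libraries, with Benjamini-Hochberg adjustment over all tested genes. TPM were tested with limma 3.58.1 on log2(TPM + 1) where the mean reached 1 TPM, and with exact permutation tests in scipy 1.17.1. That scale understates changes of low genes. In these libraries, batch with sex equals a replicate block. The pairing rests on the batch and sex in the labels: same-numbered libraries of both genotypes deviated together (mean r 0.45 across genes, 0.36 to 0.50, against -0.22 for other pairs).

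Alternatives were RLE and upper quartile scaling, TMM without immunoglobulin genes, no filters, DESeq2 1.42.0 with and without shrinkage, a pseudocount of 0.1, no block, all 8 libraries, each batch alone, and leaving out each replicate. A genotype by batch fit without replicate 1 was added after seeing the data. The scripts were tested on simulated data. The genes and lists were chosen with earlier results of these data known. The text names the 10 genes, Eif4a1, the 3 genes of each list with the smallest adjusted p, preset genes and the 3 most similar profiles of each gene called. Some genes that this rule or the lists select are not reported here. Coordinates and sequences came from GRCm39 with GENCODE annotation M39. SDs are between libraries, and depth limits genes with few counts such as Ighg2c.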

Additional observations from a re-analysis of the deposited data

Results flagged for a closer look

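The ratio of Ighd to Ighm in 4A1 KO cells had a library that stood apart. The log2 ratio was -2.82, -2.88, -2.87 and -3.25 in 4A1 KO 1 to 4, and the gap of replicate 4 to the nearest library was 0.855 of the range, above Dixon's critical value for 4 samples. Of 28 groups examined in this way 1 was marked, and chance gives about 1.4.

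The effect of the knockout differed between the batches for Ighg2c, by 4.79 on the log2 scale (adjusted p = 0.021 from edgeR). This call was lost without replicate 1, the pair of low viability (5.19, SE 0.75 against 0.41, adjusted p = 0.69), a fit in which batch A holds 1 library per genotype. For Ighg2b, Igha and Jchain the pairs of batch A and batch B had opposite signs, although those of Ighg2b in batch B were near 0 (0.051 and 0.010), with differences of 1.20, 2.30 and 2.16, and these did not pass the adjusted threshold (adjusted p = 0.999, 0.999 and 0.18). Jchain differed by -1.07 and -1.34 in the pairs of batch A and by 1.38 and 0.50 in those of batch B, on the log2 CPM scale.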

How the results depend on the processing

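Ighg3, Ighe, Ighd and Igkc kept their direction and their side of the call in all 13 alternatives. The adjusted p of Igkc, never called, was 0.05 or more in 6 of them (0.051 to 0.39), and that of Ighd was 0.072 with no replicate block. Ighm kept its call except in batch B alone, which holds the same libraries as the fit without replicate 2 (-0.49, adjusted p = 0.0012, under the fold threshold), and Ighg1 except with no replicate block (-0.69, adjusted p = 0.10). The block changed no other call among the 10 genes, of which 3 passed limma on TPM without it and 5 with it; Ighd (adjusted p = 0.090) and Ighg1 (adjusted p = 0.16) were lost. Without the block, calls fell from 8 to 6 in the assembly list, from 10 to 9 in the switching list and from 3 to 2 in the plasmablast list. Over all 14218 genes tested they fell as well, from 1949 to 1658 called lower and from 1647 to 1342 called higher. In batch A alone 8 of the 10 genes were called lower, beside 1939 of 14333 genes, among them Ighg2b (-1.23), Ighg2c (-4.26), Igha (-0.64) and Jchain (-1.19). In batch B alone 2 were called higher, beside 1393 of 14352 genes, Igha (1.45) and Jchain (0.94), while Ighg2b was at 0.029 and Ighg2c at 0.51. Jchain was at -0.12 with all 8 libraries.

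When 1 replicate was left out, Ighm ranged from -0.62 to -0.49, Ighg2b from -0.46 to 0.029, Ighg2c from -2.27 (without replicate 4, adjusted p = 0.0053) to 0.51, Igha from 0.071 to 1.45 and Jchain from -0.41 (without replicate 3) to 0.94. Of the 10 genes, 3 to 5 were called lower and 0 to 2 higher. Without replicate 2, 1690 of all 14352 genes tested were called lower and 1393 higher. Without replicate 3, 1754 of 14347 were called lower and 1405 higher. Without replicate 4, 2093 of 14337 were called lower and 1728 higher. On the limma scale these fits ranged from -0.18 to 0.17 for Ighg2b, from -1.51 to 0.33 for Ighg2c from -0.43 to 0.89 for Jchain, which was at -0.14 with all 8 libraries, and from 0.34 to 1.53 for Igha, which passed without replicate 2 (adjusted p = 0.048). Without replicate 1, 0 genes passed the genotype by batch term and that of Ighg1 was -0.068. The cause of these changes was not tested. Leaving out each replicate, or using counts in place of TPM, moved the 4 ratios by less than the spread between libraries. Sign flips within the replicate block change only the p of a ratio, whose smallest value for 4 pairs is 0.125.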
